A study of Saccharomyces cerevisiae with 8 samples.

Results

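The antitumor compound agelastatin A (AglA), a sponge alkaloid that inhibits eukaryotic translation, was compared at 0.5 and 1.0 mM with a dimethyl sulfoxide (DMSO) control on 80S ribosomes purified from *Saccharomyces cerevisiae*. The comparison rests on 3 of the 8 libraries of the series, chosen by their titles as the DMSO library and the AglA libraries, with 1 library per condition. All 3 were treated with 90 mM dimethyl sulfate (DMS) for 8 min after the drug or solvent had been added in vitro. Of the remaining libraries, one had no DMS, one had DMS alone (no addition), and the rest had DMS plus cycloheximide (CHX) at 10, 50 or 1000 µM, and they serve here to show how far a nucleotide varied without AglA. The labels leave unstated whether the ribosomes of each library were a separate preparation. Without replicates no test can be made, and each difference below is a value between single libraries.

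DMS adds a methyl group to A and C at the edge used for base pairing, unless pairing or a bound molecule covers that edge, and reverse transcription then leaves a mismatch in the cDNA. A nucleotide's mutation rate is the fraction of its reads that carry such a mismatch, and a base that a ligand shields has a lower rate. The peptidyl transferase centre lies in domain V of 25S rRNA and joins the growing peptide on the peptidyl (P) site tRNA to the amino acid on the aminoacyl (A) site tRNA. Many antibiotics that stop peptide bond formation bind there, several of them in the cleft that takes up the side chain of the incoming amino acid.

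The deposited table covered 5475 nucleotides of the 4 rRNAs, of which 2529 were A or C. Among these, 514 averaged 0.5% or more across the 7 libraries treated with DMS and are called reactive here, and 1081 had a mean rate from 0.1% to 0.5% and are called weakly reactive. The other 934 had lower rates. Changes are given as log2 ratios to DMSO, from rates with 0.001 added and each library centred on its median over the reactive nucleotides. The median rate of the reactive nucleotides was 0.0544% without DMS, 1.66% with DMSO, 1.58% with 0.5 mM AglA and 1.602% with 1.0 mM AglA. The table gives no read depth, and rates are therefore printed without counting intervals.

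The results near the peptidyl transferase centre concern mainly 3 stretches of domain V, which are shown because they hold C2821, A2820, A2941, C2942 and U2875. Capitals mark nucleotides averaging 0.1% or more whose log2 ratio to DMSO was past 0.25 in one direction at both doses, whether lower or higher. The stretches run from chrXII:452351-452377, chrXII:452226-452252 and chrXII:452299-452319 on the minus strand of the RDN25-1 gene in assembly R64, 1 of the annotated 25S copies, which are near-identical and cannot be told apart by these reads.
25S 2805 to 2831, with A2808, A2820, C2821, C2825 and U2826 in capitals: guuAccacagggauaACuggCUugugg
25S 2930 to 2956, with A2941 and C2942 in capitals: acuaauagggaACgugagcuggguuua
25S 2863 to 2883, with U2875, G2878 and U2880 in capitals: gauucuucgaugUcgGcUcuu

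C2821 had almost no DMS reactivity at either dose. Its rate was 5.87% with DMSO and 0.180% and 0.221% at the AglA doses, while ribosomes without DMS had 0.0921%. After subtraction of the rate without DMS, 1.53% and 2.23% of the DMSO signal remained. The rate at the higher dose was not below that at the lower one, and the log2 ratios were -4.35 and -4.17. All 5 other DMS libraries had 3.92% or more at C2821. By a rule of at least 0.5 on the log2 scale at both doses, C2821 was 1 of 514 reactive nucleotides lower (0.195%), and 0 were higher. C2821 and its 5′ neighbour A2820 form the wall of the amino acid cleft of the A site, as known from ribosome structures.

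A2820, next to C2821, was also lower, from a much weaker starting signal. Its rate was 0.274% with DMSO and 0.152% and 0.149% at 0.5 and 1.0 mM AglA. With no addition it was 0.337%, and with CHX 0.212%, 0.269% and 0.261%, so both AglA libraries lay below all 5 other DMS libraries, as at 33 of the 1081 weakly reactive nucleotides (3.05%) and 28 of the 514 reactive ones (5.45%). Of the DMSO signal above the rate without DMS, 48.9% and 47.7% remained. Its log2 ratios were -0.51 and -0.54, and A2820 was the 1 of 1081 weakly reactive nucleotides past 0.5 at both doses (0.0925% lower, 0 higher). Since 0.1 percentage points are added to every rate, these ratios understate the change of such a low signal, and with 0.0001 added as a fraction they were -0.74 and -0.78.

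A second adjacent pair, A2941 and C2942, was lower as well. A2941 had 0.219% with DMSO and 0.122% and 0.116% with 0.5 and 1.0 mM AglA, and 46.6% and 43.4% of the signal above the rate without DMS remained. Its log2 ratios of -0.46 and -0.51 lay just outside the rule of 0.5 at both doses, where A2820 lay just inside it. A2941 was already lower with DMSO than with no addition (0.340%, log2 ratio -0.40), and the CHX libraries had 0.242% to 0.256%, so the AglA libraries were below every other DMS library and the DMSO library was the lowest of the rest. C2942 had 1.33% with DMSO, 0.787% with 0.5 mM and 0.923% with 1.0 mM AglA (log2 ratios -0.62 and -0.43). The 5 DMS libraries without AglA had 1.01% to 1.33% at C2942, above both AglA libraries, and DMSO was the highest of them. Against the no-addition library its log2 ratios were -0.44 and -0.25. In bacteria the counterpart of C2942 lies on the path along which the end of the A-site tRNA swings into the peptidyl transferase centre.

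**Figure D1:**
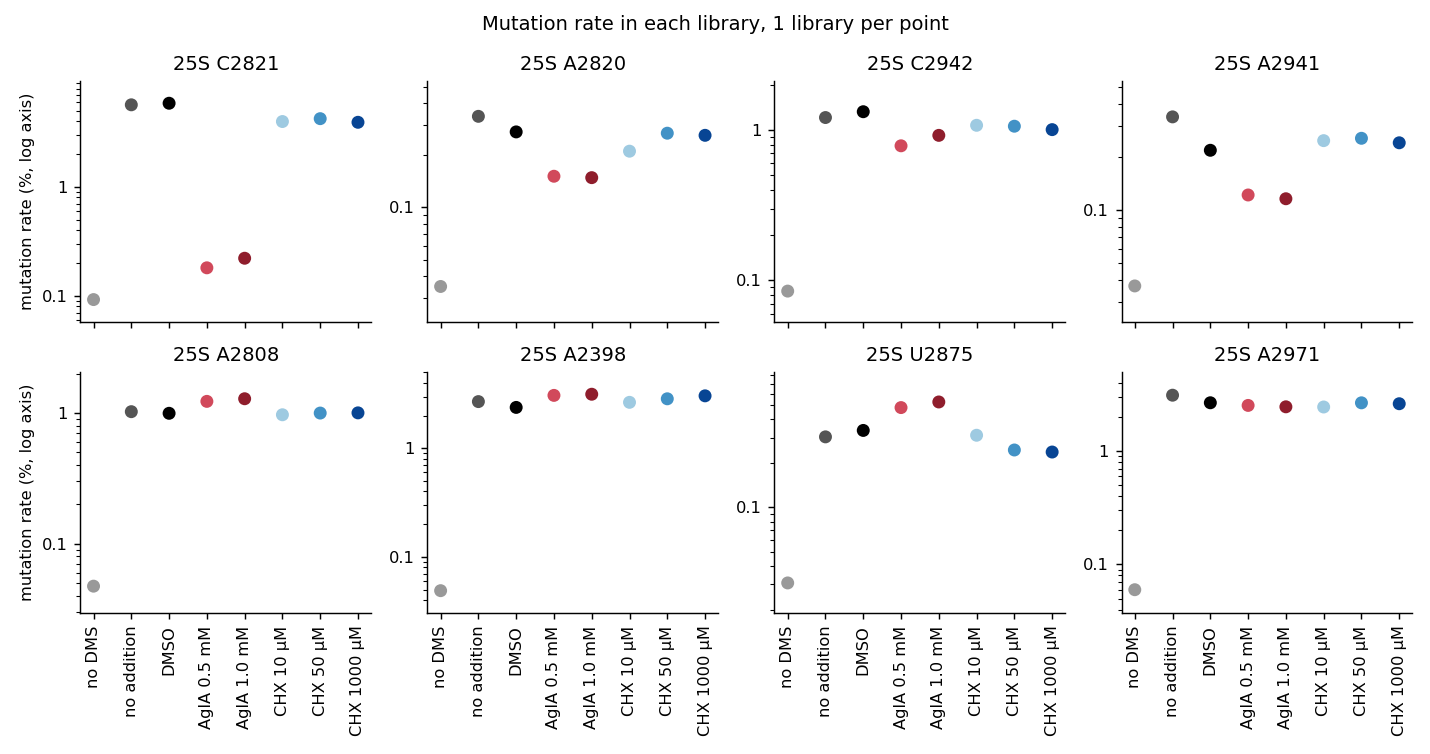
Mutation rate in percent (log axis) of 8 nucleotides of 25S rRNA in each of the 8 libraries, 1 point per library, with no error bars because there were no replicates. Both AglA points lie below all other DMS points at C2821, A2820, C2942 and A2941, above them at A2808, A2398 and U2875, and among them at A2971.

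Other nucleotides of the same domain had higher rates with AglA. A2808 had 0.997% with DMSO, and 1.23% and 1.29% with 0.5 and 1.0 mM AglA, against 0.972% to 1.03% in the 5 DMS libraries without AglA. These 5 rates were close together and both AglA rates lay above them, with log2 ratios of 0.34 and 0.39. A2398 had 2.38% with DMSO and 3.07% and 3.15% with AglA (log2 ratios 0.42 and 0.44), the highest of the 514 reactive nucleotides by the smaller of its ratios. The DMSO rate was the lowest of the DMS libraries at A2398. With 1000 µM CHX the rate was 3.04%, just under the AglA rates, and after centring that library was the higher one, with a log2 ratio to no addition of 0.43 against 0.31 and 0.33 for AglA. Rates of both AglA libraries above all 5 other DMS libraries occurred at 39 reactive (7.59%) and 119 weakly reactive nucleotides (11%), and the CHX libraries had lower median rates throughout, from 1.31% to 1.52% over the reactive nucleotides. A2398 stands 3 nucleotides before A2401, whose counterpart in bacteria lines the entrance of the peptide exit tunnel. Its surroundings are printed for comparison, from chrXII:452772-452792 on the minus strand, with A2398 in capitals.
25S 2390 to 2410: agcggggaAagaagacccugu

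U2875, which also lines the active site, had a higher rate with AglA as well. It had 0.336% with DMSO, 0.481% with 0.5 mM and 0.525% with 1.0 mM AglA. Ribosomes without DMS had 0.0305%, and the rate was 0.239% to 0.336% in the DMS libraries without AglA. It was 1 of 57 of the 890 G and U nucleotides from 0.1% upward with both AglA rates above those libraries (6.4%). The log2 ratios were 0.48 and 0.57, or 0.65 and 0.74 against the no-addition library. At uridine DMS reacts little, and U2875 was singled out after its values were seen. Of the same 890, 1 was past 0.5 at both doses, namely G426 of 25S (0.112% higher), and 0 were lower. G426 had 0.225% without DMS and 0.166%, 0.281% and 0.285% with DMSO and the AglA doses, so its rate without DMS was above that with DMSO. In the printed stretches C2825, U2826, G2878 and U2880 likewise had 0.0935% to 0.245% without DMS, which is close to or above their rates with DMSO (0.0791% to 0.218%).

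**Figure D2:**
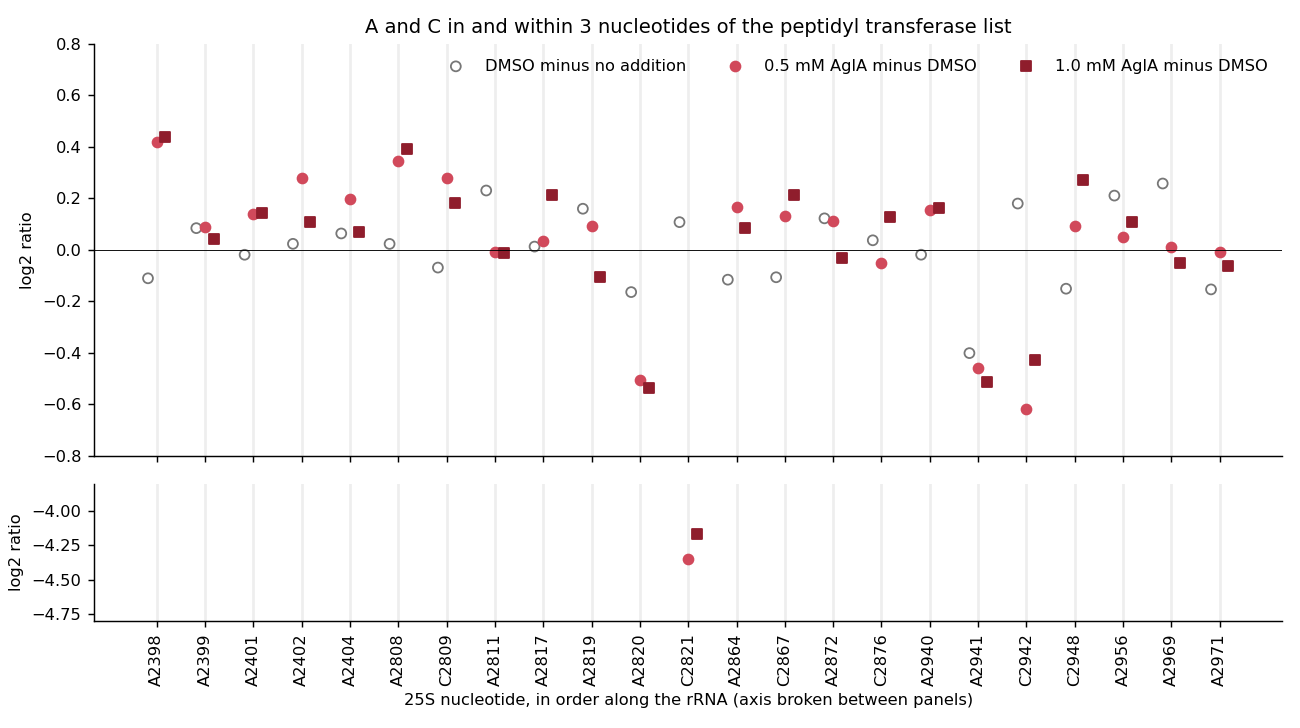
Log2 ratios of the 23 A and C nucleotides of 25S rRNA with a mean rate of at least 0.1% that belong to the peptidyl transferase list or lie within 3 nucleotides of it, in order along the rRNA. Filled symbols are the AglA doses against DMSO and open circles are DMSO against no addition, each from 1 pair of libraries, and the broken axis holds C2821 at -4.35 and -4.17 while A2820, A2941 and C2942 lie from -0.62 to -0.43.

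Across the listed peptidyl transferase nucleotides the direction was mixed, and most members differed little from DMSO. The list held 15 A and C whose base matched the table, of which 13 had a mean rate of at least 0.1%, and with their near neighbours 23 of 31 did. Of the 23, 4 were lower by at least 0.25 at both doses (17.4%), namely A2820, C2821, A2941 and C2942, against 8 of all 1595 A and C from 0.1% upward (0.502%). A2398 and A2808 were the 2 of 23 higher by 0.25 (8.70%), against 59 of 1595 (3.7%). The members were chosen with earlier results of these data known, so these shares describe the list and do not set it apart. The median log2 ratio of the 13 listed nucleotides was 0.03 at 0.5 mM and -0.03 at 1.0 mM, against 0.05 and 0.07 over all 1595.

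None of the nucleotides named here at the entrance of the peptide exit tunnel was lower at both doses. A2401 had 25.8% with DMSO and 27.2% and 27.5% with AglA. A2404 had 7.93%, 8.71% and 8.04%, and A2402 had 1.39%, 1.63% and 1.44%, in the same order. At A2402 and A2404 both AglA rates lay above all 5 other DMS libraries, although at 1.0 mM by little (log2 ratios 0.11 and 0.07 to DMSO). A2872, also at the tunnel entrance, had 1.10% with DMSO, 1.14% with 0.5 mM and 1.03% with 1.0 mM AglA, so the doses fell on either side of DMSO.

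A2971, the counterpart of a flexible bacterial adenosine between the A and the P site, stayed near DMSO. It had 2.67% with DMSO, 2.53% with 0.5 mM and 2.46% with 1.0 mM AglA (log2 ratios -0.01 and -0.06), within the 2.45% to 3.12% of the other DMS libraries. After centring, log2 ratios to no addition were -0.16 and -0.22 with AglA, -0.15 with DMSO and -0.03 to 0.04 with CHX. A2819, just 5′ of A2820, had 0.118%, 0.122% and 0.0959% with DMSO and the 2 doses, and A2817 had 0.155%, 0.149% and 0.186%. These weak signals 5′ of the pair differed in sign between doses at A2819. At A2817 the log2 ratios were 0.03 and 0.21, but at 0.5 mM the uncentred rate was below that of DMSO, and without centring that ratio was -0.03. Of the near neighbours not yet named, A2399, C2809, A2864, C2867, A2940, C2948 and A2956 had log2 ratios above 0 at both doses, from 0.04 to 0.28. All were weakly reactive, and the medians of all 1081 weakly reactive nucleotides were 0.07 and 0.11. Without centring, the ratio was -0.008 for A2399 at 1.0 mM and -0.016 for A2956 at 0.5 mM. A2811 had -0.01 at both doses, and A2969 had 0.01 and -0.05. C2876, a listed nucleotide, had -0.05 and 0.13. On the other side of C2821, the next A or C with a mean rate of at least 0.1% was C2825, which had 0.111% with DMSO, and 0.143% and 0.178% with AglA.

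C2622 lies 2 nucleotides beyond the P loop, which pairs with the end of the P-site tRNA. It had 5.20% with DMSO and 4.33% and 4.39% with AglA (log2 ratios -0.20 and -0.19), but the CHX libraries had lower rates still, at 3.68% to 3.84%. After centring, log2 ratios to no addition were -0.09 and -0.08 with AglA, and -0.002, -0.22 and -0.18 with 10, 50 and 1000 µM CHX. In the other structural groups, where few nucleotides could be measured, no A or C was past 0.25 at both doses. This covers 1 nucleotide of the A loop, 3 of helix 69 at the subunit interface, 2 of the decoding centre of 18S, 1 of the E-site pocket (C2764) and 4 bases with a natural modification on the base-pairing edge. C2764 had 12.7% with DMSO, 11.96% with 0.5 mM and 13.3% with 1.0 mM AglA, and 0.0633% with 1000 µM CHX.

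**Figure D3:**
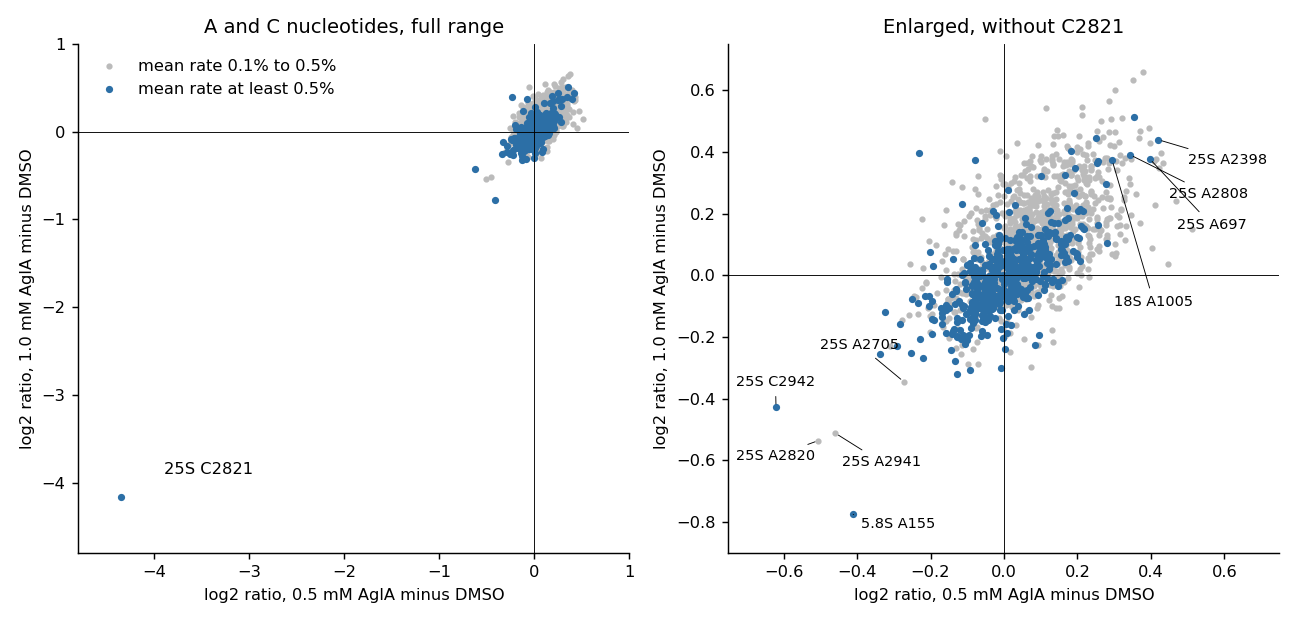
Log2 ratio to DMSO at 0.5 mM AglA (x axis) against that at 1.0 mM AglA (y axis) for the 514 reactive (blue) and 1081 weakly reactive (grey) A and C nucleotides, over the full range (left) and enlarged without C2821 (right). Both axes share the DMSO library, so a deviation of that 1 library alone moves a point along the diagonal. C2821, A2820, A2941, C2942 and 5.8S A155 stand apart at the lower left.

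Over all reactive nucleotides, 191 were lower (37.2%) and 186 higher (36.2%) than DMSO at both doses, and 137 differed in sign between doses. Both ratios contain the same DMSO library, so a deviation of that library alone gives one direction at both doses. Past 0.25 at both doses, 5 were lower (0.973%) and 9 higher (1.75%). At all 5 lower ones the DMSO rate was the highest of the 7 DMS libraries, and at 2 of the 9 higher ones it was the lowest. Choosing by the ratio to DMSO itself favours an outermost DMSO rate, and the shares over all 514 are not given here. For scale, DMSO against no addition, a single ratio, put 29 of 514 lower (5.64%) and 49 higher (9.53%) past 0.25. CHX at 50 and 1000 µM against no addition put 3 lower (0.584%) and 15 higher (2.92%) past 0.25 at both doses. Taken singly and without C2821, 19 nucleotides were past 0.25 in either direction at 0.5 mM AglA and 26 at 1.0 mM. The same count for DMSO against no addition was 78. Without C2821, the log2 ratios had a standard deviation of 0.11 at 0.5 mM and 0.13 at 1.0 mM, and the difference between the AglA doses one of 0.096. That of DMSO against no addition was 0.19.

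Beside C2821 and C2942, the reactive nucleotides lower by at least 0.25 were 5.8S A155, 25S A1566 and 18S C1235. A155 stands 3 nucleotides from the 3′ end of 5.8S rRNA. It had 0.875% with DMSO, 0.602% with 0.5 mM and 0.450% with 1.0 mM AglA (log2 ratios -0.41 and -0.78). It had 0.717% with no addition and 0.560% to 0.619% with CHX, so the uncentred rate at 0.5 mM lay within the range of the CHX libraries. After centring, the log2 ratios to no addition were -0.09 and -0.46 with AglA and -0.001 to 0.07 with CHX. Its surroundings are chrXII:455414-455429 on the minus strand, in RDN58-1, with capitals as above.
5.8S 143 to the 3′ end, with G144, G152 and A155 in capitals: uGuuugagcGucAuuu
A1566, in domain III, had 0.870%, 0.634% and 0.685%, and C1235, in the head of the small subunit, had 0.996%, 0.779% and 0.789%, with DMSO, 0.5 and 1.0 mM AglA. At C1235 all CHX libraries had rates below the AglA rates, from 0.694% to 0.778%. After centring, log2 ratios to no addition were 0.15, -0.19 and -0.12 with 10, 50 and 1000 µM CHX, and -0.10 at both AglA doses. At A1566 the 10 and 1000 µM CHX libraries were below them, with 0.509% and 0.521%, and the 50 µM library was above them, with 0.756%. The next lower ones were A398, C1628, C2560 and C2622 of 25S and A1244 of 18S, with log2 ratios between -0.29 and -0.16. The largest rates among these were those of C2622, given above, and of C1628, with 2.58%, 2.00% and 2.22% in the same order and 2.04% with no addition. The uncentred rates of C1628 thus lay on either side of the no-addition rate at the AglA doses. After centring, both log2 ratios to no addition were above 0 (0.10 and 0.23).

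The 9 reactive nucleotides higher by at least 0.25 were all adenosines, as were 381 of the 514 tested. These 9 lay in 25S (5) and 18S rRNA (4). Beside A2398 and A2808 they were A697, A1757 and A2702 of 25S and A542, A579, A971 and A1005 of 18S, and the next was A706 of 18S (3.82%, 4.25% and 4.27%). A697, in domain II, had 0.631% with DMSO and 0.820% and 0.817% with AglA, above the 0.465% to 0.631% of the DMS libraries without AglA. Its neighbour A699 had 0.626%, 0.679% and 0.777%, also above all other DMS libraries. A1005, in the central domain of 18S, had 0.888% with DMSO and 1.06% and 1.14% with AglA, against 0.476% to 0.758% with no addition or CHX. A1005 already differed between DMSO and no addition, in the same direction (log2 ratio 0.28). A1003, 2 nucleotides before it, went the other way, with 0.981%, 0.845% and 0.809% in the same order, against 1.12% to 1.34% with no addition or CHX. Their surroundings are given with the nucleotides past 0.25 in capitals, on the minus strand of chrXII:454475-454493 in RDN25-1 and of chrXII:456718-456738 in RDN18-1.
25S 689 to 707, with A697 in capitals: uaaaacccAuacgcguaau
18S 995 to 1015, with A1005 in capitals: augaucagauAccgucguagu

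A971 of 18S shows how far the choice of control can matter. It had 1.28% with DMSO, 1.47% with 0.5 mM and 1.61% with 1.0 mM AglA, so it was higher by 0.25 and 0.36 on the log2 scale. With no addition it had 2.78%, and against that library the AglA ratios were -0.75 and -0.64. A847 of 25S was lower than DMSO at both doses (0.385%, 0.270% and 0.331%, log2 ratios -0.32 and -0.12), and it too was already lower with DMSO than with no addition (0.821%). With the no-addition library as control, 10 reactive nucleotides were lower (1.95%) and 3 higher (0.584%) past 0.5 at both doses, in place of 1 and 0, and C2821 was among the 10. A2820 and A2941 were 2 of the 3 weakly reactive nucleotides lower past 0.5 against that library (0.278%).

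The reactive nucleotides that were lower and those that were higher differed in base. Past 0.1 at both doses, 39 were lower (7.59%), of which 18 were C, and 49 were higher (9.53%), of which 4 were C. The 514 tested held 133 C. The median log2 ratio of reactive cytidines was -0.04 at 0.5 mM and 0.00 at 1.0 mM, and that of reactive adenosines 0.02 and 0.00. Reactive cytidines were also higher with DMSO than with no addition, with a median log2 ratio of 0.11 against 0.03 for adenosines, and these comparisons share the DMSO library. The 25S rRNA, with 292 reactive nucleotides tested, held 22 of the lower and 28 of the higher ones. The 18S rRNA, with 199 tested, held 14 and 20, 5.8S (15 tested) held 3 and 0, and 5S (8 tested) held 0 and 1.

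Among weakly reactive nucleotides most were slightly higher with AglA after centring, and the lower ones stood out against that shift. Of 1081, 700 were higher (64.8%) and 132 lower (12.2%) than DMSO at both doses, and the median log2 ratios were 0.07 and 0.11. Before centring, their median rate was 0.1710% with DMSO, 0.1698% with 0.5 mM and 0.1811% with 1.0 mM AglA. Past 0.25 at both doses, 50 were higher (4.63%) and 3 lower (0.278%). The shift depended on base and dose. Weakly reactive cytidines had medians of 0.08 at 0.5 mM and 0.23 at 1.0 mM, adenosines 0.07 at both, and G and U from 0.1% upward 0.10 and 0.16. Such a shift was not particular to AglA. CHX at 50 and 1000 µM against no addition gave medians of 0.10 and 0.19 over all weakly reactive nucleotides, and 0.10 and 0.22 over the cytidines. Weakly reactive cytidines had a median rate of 0.0978% without DMS, 0.153% with DMSO and 0.159% and 0.191% with AglA. A large part of their signal was thus present without DMS, and the part of non-DMS mismatches in the shift was not tested.

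**Figure D4:**
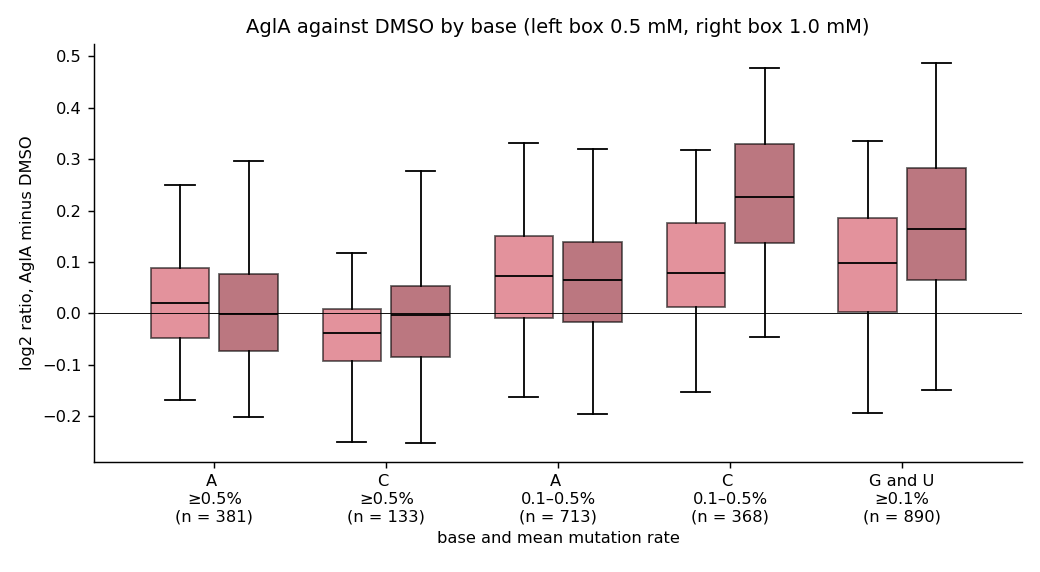
Log2 ratio to DMSO at 0.5 mM (left box of each pair) and 1.0 mM AglA (right box) for adenosines and cytidines by mean mutation rate and for G and U, with the median as a line, the quartiles as the box, and whiskers that leave out the outermost 5% of nucleotides, of 1 library pair each. Weakly reactive cytidines have the highest median, 0.23 at 1.0 mM, and reactive A and C are centred near 0.

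The weakly reactive nucleotides lower by 0.25 were A2820, A2941 and A2705, all adenosines of domain V. Of the 1081 tested, 713 were adenosines and 128 lay in domain V. A2705 had 0.2504% with DMSO and 0.177% and 0.166% with AglA, against 0.179% to 0.228% with no addition or CHX. The AglA rates were thus the lowest of the DMS libraries, but the rate at the lower dose lay next to that of the 10 µM CHX library. After centring, the log2 ratios to no addition were -0.12 and -0.19 with AglA and 0.14 with 10 µM CHX. The next in size were A159 of 25S, with 0.215%, 0.143% and 0.160%, and A395 of 25S, with 0.223%, 0.169% and 0.174%. At A159 the rate with 10 µM CHX (0.142%) was as low as that with AglA. After centring, that library's log2 ratio to no addition was -0.02, against -0.26 and -0.18 for AglA. The log2 ratios of the 3 nucleotides after A395 in size (25S A2158 and A2656 and 18S A22) had a size between 0.15 and 0.20 at both doses. A1613 of 25S had 0.153%, 0.0997% and 0.121% with DMSO, 0.5 and 1.0 mM AglA, and A2029 of 25S had 0.204%, 0.162% and 0.167%. Against the no-addition library the log2 ratios were -0.06 and 0.07 at A1613 and 0.10 and 0.11 at A2029. After centring, both were thus lower at both doses only against DMSO. The uncentred AglA rates were also below no addition, which had 0.127% at A1613 and 0.1669% at A2029. At A2029 the rate with 1.0 mM AglA was just below it, at 0.1667%.

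At 31 of the 50 weakly reactive nucleotides higher by 0.25, the DMSO rate was the lowest of the 7 DMS libraries. Choosing nucleotides above DMSO at both doses itself favours a low DMSO rate, and the share over all 1081 is not given here. C205 of 25S had 0.0943% with DMSO, 0.145% and 0.152% with AglA and 0.113% with no addition. C2013 of 25S had 0.160%, 0.227%, 0.2498% and 0.201% in the same order, and 0.177% without DMS. A171 of 18S had 0.121% with DMSO and 0.184% and 0.180% with AglA, but 0.190% with no addition. C1254, A791 and A2430 of 25S, C1365 of 18S and C9 of 5S had DMSO rates of 0.0791% to 0.130%, the lowest of the 7 DMS libraries at each, with log2 ratios of 0.35 to 0.66. At C1254, C1365 and 5S C9 the rate without DMS was above that with DMSO. At A288 of 18S and A557 of 25S the DMSO rate was not the lowest. A288 had 0.235% with DMSO, 0.313% and 0.340% with AglA and 0.164% to 0.222% with no addition or CHX, and A557 had 0.249%, 0.350% and 0.334% with 0.180% to 0.276% in the other libraries. At both, the AglA rates lay above all 5 other DMS libraries, as they also did at C205 and A2430.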

How the data were processed

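The deposited table lists a mutation rate per nucleotide for each library. The values are a fraction of reads with a mismatch per nucleotide, as deposited by the authors, printed here as percentages. Per the labels' protocols, rRNA was fragmented, ligated to a linker, copied with TGIRT-III, selected for full-length cDNA and amplified by PCR. Bowtie2, cutadapt and build sacCer3 are named in the submitters' processing notes, with neither versions nor roles. The mismatch caller, its filters and the depth were not given in the sources used here. Depth sets the precision of low rates, which is thus unknown.

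Rates were analysed as log2(rate + 0.001), centred on each library's median over the reactive A and C (mean of 0.5% or more across the 7 libraries with DMS), with the DMSO value subtracted (Python 3.11.15, numpy 2.4.6, pandas 2.3.3, figures with matplotlib 3.10.9). This was checked on simulated rates. No p-value was computed. A nucleotide was called past a log2 size of 0.5 with one sign at both doses. The text names the called nucleotides, the 10 reactive and 10 weakly reactive ones furthest from DMSO in each direction (some only within a range), and A and C within 3 nucleotides of the peptidyl transferase list. G and U, C2825, A699, A1003, A847, C969, C2764, C453 and 5.8S C151 were chosen after their values were seen.

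The members, lists and rules were chosen with earlier results of these data known. List positions and roles came from memory. Entries whose base differed from the table were dropped, 1 of 25 in the peptidyl transferase list, and the sarcin-ricin list was not used because 8 of its 13 entries differed. Domain boundaries were approximate. Positions were converted through the R64 gene table of RefSeq. U is written where the table has T.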

Additional observations from a re-analysis of the deposited data

Results flagged for a closer look

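2 reactive cytidines moved in opposite directions at the AglA doses by at least 0.1 on the log2 scale, and the difference was not tested. C453 of 25S had 4.38% with DMSO, 3.54% with 0.5 mM and 5.59% with 1.0 mM AglA (log2 ratios -0.23 and 0.40), a difference between doses of 0.63, with 0.660% without DMS and 2.88% to 3.48% in the other DMS libraries. 5.8S C151 had 1.79%, 1.57% and 2.05% (log2 ratios -0.11 and 0.23), a difference of 0.35, with 0.310% without DMS.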

How the results depend on the processing

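No paired analysis was possible because each condition had 1 library. Across the alternatives run, 55 of 75 named nucleotides kept the sign of both ratios, and the other 20 changed sign at 1 or both doses in at least 1 setting. C2821 was lower at both doses in every setting, by -4.93 to -2.50 at 0.5 mM and -4.66 to -2.46 at 1.0 mM. With the same settings and the weakly reactive centred on their own median, A2820 ranged from -0.74 to -0.10 and from -0.78 to -0.12, and A2941 from -0.86 to -0.08 and from -0.91 to -0.09. The values nearest 0 came with 0.01 added to the rate, which by construction shrinks low rates. The count of 1 reactive nucleotide lower became 2 with the rate without DMS subtracted (C969 added, at 2.10% without DMS) and 2 with the mean of both controls (A847 added), 10 with the no-addition library as control, and 5 at a size of 0.25. The count of 0 higher became 3 with the no-addition library and 9 at 0.25. Among weakly reactive nucleotides, the count of 1 lower became 2, with A2941 added, for a constant of 0.0001, uncentred values, subtraction of the rate without DMS, the mean of both controls, and centring on their own median, a setting chosen after seeing the data. It became 3 with the no-addition library and at 0.25, and 0 with a constant of 0.01 or a size of 1. The count of 0 higher became 10 with 0.0001, 13 with subtraction, 3 with the no-addition library and 50 at 0.25. Depth, which the table lacks, limits what the low rates can show.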

Other observations

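Some uridines of the A site region carried a weak DMS signal that differed with AglA, and they were chosen after their values were seen. U2921 and U2924 of the A loop also averaged 0.1% or more, and their values are not given here. U2923 of 25S, in the A loop that pairs with the end of the A-site tRNA, had 0.244% with DMSO, 0.170% with 0.5 mM and 0.187% with 1.0 mM AglA (log2 ratios -0.29 and -0.21), against 0.0589% without DMS. Its rate with 1000 µM CHX was 0.183%, which lay between the AglA rates. After centring, that library's log2 ratio to no addition was 0.0005, against -0.20 and -0.13 for AglA. U2953 had 0.181%, 0.143% and 0.162%, and U2954 had 0.367%, 0.322% and 0.313%, in the same order. At U2954 the CHX libraries had lower rates, at 0.267% to 0.296%. Against no addition both AglA ratios at U2954 were above 0 (0.16 and 0.12), as were the CHX ratios (0.21, 0.13 and 0.12). Of U2923, U2953, U2954 and U2875, U2875 alone was higher with AglA than with DMSO.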
